A study of Mus musculus with 16 samples.

Results

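The variable segments of the T cell receptor β locus (*Trb*, mouse chromosome 6) were described by the accessible chromatin called over them in 4 stages of thymocyte development. The members were the ATAC-seq peaks of each stage between 20 kb upstream of *Trbv1* and the last base before a 50 kb stretch that had been reported already, a span of 648.8 kb (chr6:40871229-41519999, mm10). This span holds 34 of the variable segments, *Trbv1* to *Trbv30*, of which GENCODE M21 annotates 21 as functional and 13 as pseudogenes. *Trbv31* and the D and J segments lie in the stretch that was left out. The span held 205 peaks, which merged into 80 regions of 185978 over the whole series. Peaks were taken as shared where they overlapped by at least 1 bp.

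DN, DP, SP4 and SP8 thymocytes were sorted from wild type C57BL/6J mice aged 9 weeks, with 16 libraries in all. By the labels the same 4 mice gave all 4 stages. All cells were negative for lineage markers, which included the γδ T cell receptor and the myeloid markers Mac1, the product of *Itgam*, Gr1 and CD11c. DN cells lacked CD4, CD8 and CD3, DP cells carried CD4 and CD8, and SP4 and SP8 cells carried CD3 with CD4 or CD8 alone. The authors pooled the libraries of a stage before calling peaks, so each stage was 1 list without replicates. No comparison between stages could be tested for this reason, all differences below are descriptions of these 4 lists, and the intervals given cover counting error only. The lists give no read counts, so the depth behind a peak is unknown. For the pooled reads of the stages, the paper reports depths within a narrow range after down-sampling. The starts of *Cd3e*, *Cd3d* and *Lck* had peaks at all 4 stages and those of *Cd79a*, *Klf1* and *Ncr1*, markers of B, erythroid and NK cells, at no stage. The starts of *Cd4*, *Cd8a*, *Cd8b1*, *Kit* and *Il2ra* had peaks at all 4 stages and did not set the stages apart. The start of *Itgam*, a myeloid gene, also had peaks at all 4 although the sort gated against its product, with fold enrichments (signal at the summit relative to the local background) from 5.08 (DP) to 19.7 (SP8), and its part in the results was not tested.

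The β chain of the T cell receptor is assembled by V(D)J recombination, in which the RAG proteins join a V segment to a D and a J segment. Each V segment carries its own promoter at the 5′ end and, directly after its last coding base, a recombination signal sequence of a heptamer, a spacer of 23 bp and a nonamer (23-RSS), which RAG binds and cuts. *Trb* rearrangement takes place at the DN stage, and cells that express a β chain proceed to DP, where further V to DJ joining at *Trb* is held back. Joining removes the DNA between the chosen segments from the chromosome, which includes the 23-RSS of the chosen V segment but not its 5′ end. These lists hold no measure of DNA copy number. At DP, SP4 and SP8, fewer copies of a segment, or of its 3′ end alone, cannot be told apart from reduced opening. Nor can fewer cells with an open site be told apart from a less open site per cell.

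The 23-RSS of 10 segments are shown because peaks at the 3′ ends of the segments, where these signals lie, were called in most segments at DN and in fewest at SP8. The first 7 lines are signals with a peak at DN whose heights are described below. *Trbv12-1* is a functional segment with a poor nonamer and a DN peak whose summit lies 197 bp past the segment. *Trbv13-1* and *Trbv15* are functional segments without a peak at the 3′ end at any stage. Capitals mark the heptamer and the nonamer.
*Trbv1* 23-RSS, chr6:40891886-40891924, + strand: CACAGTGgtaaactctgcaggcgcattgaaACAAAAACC
*Trbv3* 23-RSS, chr6:41048825-41048863, + strand: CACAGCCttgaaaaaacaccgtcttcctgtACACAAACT
*Trbv16* 23-RSS, chr6:41152231-41152269, + strand: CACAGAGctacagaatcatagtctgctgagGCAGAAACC
*Trbv19* 23-RSS, chr6:41179049-41179087, + strand: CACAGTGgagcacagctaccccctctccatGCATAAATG
*Trbv20* 23-RSS, chr6:41188978-41189016, + strand: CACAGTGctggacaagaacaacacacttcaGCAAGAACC
*Trbv26* 23-RSS, chr6:41227994-41228032, + strand: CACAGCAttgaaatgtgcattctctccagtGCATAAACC
*Trbv24* 23-RSS, chr6:41218558-41218596, + strand: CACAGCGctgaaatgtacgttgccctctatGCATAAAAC
*Trbv12-1* 23-RSS, chr6:41114068-41114106, + strand: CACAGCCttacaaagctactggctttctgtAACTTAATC
*Trbv13-1* 23-RSS, chr6:41116469-41116507, + strand: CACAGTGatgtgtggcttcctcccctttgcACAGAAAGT
*Trbv15* 23-RSS, chr6:41141659-41141697, + strand: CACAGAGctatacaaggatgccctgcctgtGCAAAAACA

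Windows of 100 bp around the highest summit of 9 regions are shown for the tallest peaks and the motif matches named below. Capitals mark matches to CTCF, RUNX (TGTGGT), ETS (AGGAAGT), E-box (CAGNTG) and CRE-like (TGANNTCA) motifs on either strand. The last line, from a DN-only region, holds no match to any of the motifs searched.
*Trbv23* 5′ end, chr6:41216007-41216106, + strand: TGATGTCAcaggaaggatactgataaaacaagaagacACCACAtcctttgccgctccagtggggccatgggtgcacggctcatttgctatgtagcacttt
*Trbv1* 5′ end, chr6:40891007-40891106, + strand: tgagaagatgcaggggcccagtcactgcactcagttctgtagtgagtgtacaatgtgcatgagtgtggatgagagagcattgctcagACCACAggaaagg
*Trbv5* 5′ end, chr6:41062238-41062337, + strand: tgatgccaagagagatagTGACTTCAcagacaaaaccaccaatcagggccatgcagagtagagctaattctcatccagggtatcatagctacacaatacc
*Trbv13-3* 5′ end, chr6:41130003-41130102, + strand: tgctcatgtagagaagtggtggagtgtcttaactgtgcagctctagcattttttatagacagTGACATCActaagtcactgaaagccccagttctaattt
*Trbv3* 3′ end, chr6:41048779-41048878, + strand: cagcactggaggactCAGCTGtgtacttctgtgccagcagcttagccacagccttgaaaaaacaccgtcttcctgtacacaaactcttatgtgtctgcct
*Trbv26* 3′ end, chr6:41228006-41228105, + strand: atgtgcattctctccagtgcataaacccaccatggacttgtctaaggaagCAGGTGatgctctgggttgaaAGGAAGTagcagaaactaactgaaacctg
*Trbv19* 3′ end, chr6:41179032-41179131, + strand: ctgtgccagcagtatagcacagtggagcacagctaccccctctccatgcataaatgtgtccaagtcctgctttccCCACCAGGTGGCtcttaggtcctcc
downstream of *Trbv1*, chr6:40893680-40893779, + strand: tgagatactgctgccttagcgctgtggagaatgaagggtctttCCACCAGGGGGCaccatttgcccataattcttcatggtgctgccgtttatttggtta
between *Trbv6* and *Trbv7*, chr6:41075865-41075964, + strand: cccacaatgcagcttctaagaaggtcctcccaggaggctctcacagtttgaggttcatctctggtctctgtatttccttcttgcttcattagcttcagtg

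Accessible regions were dense over the variable array and less dense on both sides of it. The array from *Trbv2* to *Trbv30* (chr6:41046340-41282990, 33 segments) held 65 of the 80 regions in 236.7 kb. At DN it held 23.7 peaks per 100 kb, against 5.58 on the whole of chromosome 6. The densities were 14.4 (DP), 17.3 (SP4) and 16.9 (SP8), against 3.98, 4.37 and 3.90 on the chromosome. The 156.1 kb with *Trbv1* and the gap after it held 8 regions and between 2.56 (DP) and 4.48 (SP4) peaks per 100 kb. Its SP4 and SP8 (3.84) densities were near those of the chromosome, while its DN (3.20) and DP densities were lower. The 237.0 kb between the array and the stretch left out, which carries trypsin genes, held 7 regions and between 0.844 (DP and SP8) and 2.11 (DN) peaks per 100 kb. The 5′ flank held none. Stretches of 75 bp, the read length, occurred once in the genome at 94.2% of positions in the array. The shares were 74.2% in the part with *Trbv1* and 83.4% after the array, and their effect on the densities was not tested. Of 29 genes in the span outside *Trb*, 8 held a region. Among the 6 trypsin family genes, counted by symbols starting Prss or Try, these were *Prss58* and *Try5*, with 1 region each, called at SP8 alone and at DN alone. The first region inside the span was an SP4 peak with a fold enrichment of 3.12. Its summit lay 506 bp upstream of *Trbv1*, in an exon of *Gm38276*. The nearest peak upstream of the span was an SP8 peak of 3.49 at chr6:40825703-40825802. At the other edge, the last region inside (chr6:41519672-41519899) had fold enrichments of 4.50 (SP4) and 5.02 (SP8), and the next outside had between 4.37 and 5.93.

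**Figure D1:**
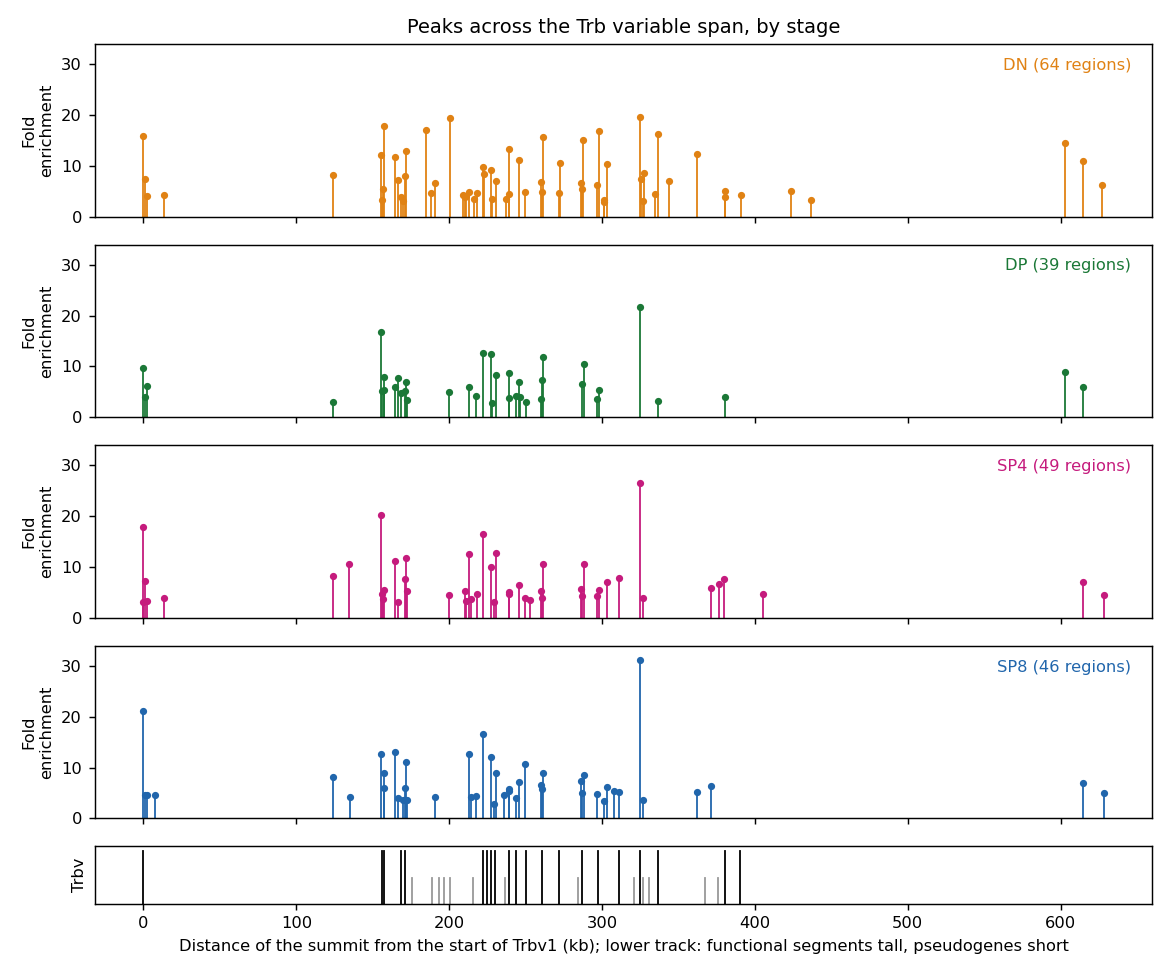
Peaks of each stage across the span, with the highest peak of each merged region drawn at its summit. The x axis is the distance from the start of *Trbv1* in kb and the y axis the fold enrichment over local background; the lower track marks 21 functional segments (tall) and 13 pseudogenes (short). Peaks crowd over the array at all 4 stages, and the tallest at SP8, 31.2, is that of *Trbv23*.

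Of the 80 regions, the numbers called were 64 (DN), 39 (DP), 49 (SP4) and 46 (SP8). These are 80.0% (95% Wilson interval 70.0 to 87.3), 48.8% (38.1 to 59.5), 61.3% (50.3 to 71.2) and 57.5% (46.6 to 67.7). Over all merged regions the shares were 75.7% (DN), 53.9% (DP), 58.3% (SP4) and 53.0% (SP8), each within the interval of the members. Regions called at all 4 stages numbered 28, or 35.0% against 34.1% over all regions. DN-only regions numbered 18, or 22.5% against 21.7%, and DP-only regions 1, or 1.25% against 5.17%. SP4-only regions numbered 4 (5.0% against 7.39%) and SP8-only regions 3 (3.75% against 4.21%). Taken over the whole span, the stages were therefore called in shares near the background. A further 6 regions were shared by SP4 and SP8 alone (7.5% against 3.82%) and 4 by DN and DP alone (5.0% against 5.59%). Where each list was shortened to the same number of peaks, 9 of 69 regions were DN-only, or 13.0% against 11.1% over all merged regions of the shortened lists.

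The regions were also described by their position relative to the segments. The 5′ end of a segment was taken as 600 bp upstream to 100 bp downstream of its annotated start, and the 3′ end as 200 bp on each side of its annotated end, with a peak placed by its summit. By this measure 41 of the 80 regions lay at an end of a segment, among them 20 of the 28 called at all 4 stages. The other 39 lay elsewhere, 30 of them in no gene. The share of the span covered by the end windows was not computed, so these counts do not show a preference for the ends. Of the 34 segments, 24 had a peak at an end at some stage, 20 of them functional. The 10 without were the pseudogenes *Trbv6*, *Trbv7*, *Trbv8*, *Trbv9*, *Trbv18*, *Trbv22*, *Trbv25*, *Trbv27* and *Trbv28* and the functional *Trbv13-1*. Counting any peak from 200 bp upstream of a segment to 50 bp downstream, 19 of 21 functional segments and 3 of 13 pseudogenes had one. All 13 segments with such a peak at all 4 stages were functional. Stretches of 75 bp, the read length, had no exact copy in the genome at any position of the 3′ end windows. In every 5′ window this held at 86.0% or more of the positions. Copies with a mismatch were not counted, so reads from near-identical segments could still have been lost to the authors' filter for unique reads.

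The ends differed in how their calls ran over the stages. At the 5′ ends, where the promoters lie, the segments with a peak numbered 15 (DN), 15 (DP), 16 (SP4) and 16 (SP8). At the 3′ ends they numbered 20 (DN), 11 (DP), 9 (SP4) and 7 (SP8). Every segment with a 3′ peak at any stage had one at DN. Against all 20 at DN, the shares were 55.0% (DP, 34.2 to 74.2), 45.0% (SP4, 25.8 to 65.8) and 35.0% (SP8, 18.1 to 56.7), beside the 75.7% (DN), 53.9%, 58.3% and 53.0% over all merged regions. For the 19 segments with a 5′ peak the shares were 78.9% at DN and DP and 84.2% at SP4 and SP8. Of these 20 3′ ends, 8 were called at DN alone and so entered the count through that stage only, and none was called at another stage alone. More peaks were called at DN than at any other stage over the genome. With the same number of peaks taken from each list, 16, 11, 9 and 7 segments had a 3′ peak and 13, 14, 15 and 16 had a 5′ peak, and the DN-alone 3′ ends were 4, those of *Trbv12-1*, *Trbv17*, *Trbv23* and *Trbv24*.

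**Figure D2:**
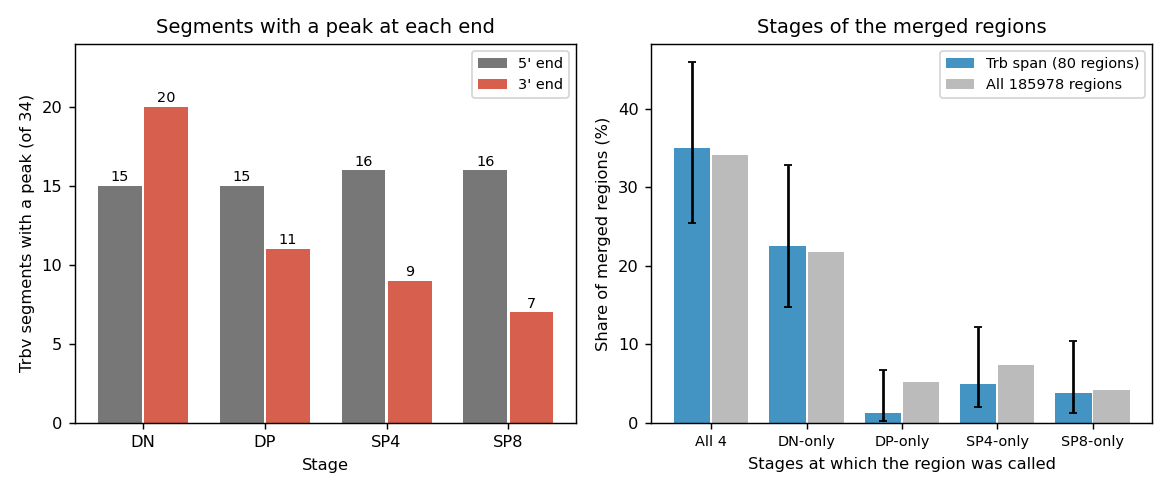
Left, the number of the 34 *Trbv* segments with a peak at the 5′ end (grey) or the 3′ end (red) at each stage. Right, the share in percent of the 80 merged regions of the span (blue, with 95% Wilson intervals for counting error) and of all 185978 regions (grey) called at all 4 stages or at a single stage. The 5′ counts stay between 15 and 16 while the 3′ counts go from 20 (DN) to 7 (SP8), and the shares on the right are near those of all regions.

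Heights were set side by side as fold enrichment and as percentiles, where a percentile is the percent of peaks in the list of that stage with a lower fold enrichment. Fold enrichment is not comparable between lists without replicates, so stages were ranked by percentile and fold enrichments are given as descriptions. Of the 12 segments with a 3′ peak at more than 1 stage, the percentile was highest at DN in 10, and of the 17 with such a 5′ peak in 3. All 12 had a 3′ peak at DN, while *Trbv3*, *Trbv14* and *Trbv21* among the 17 had no 5′ peak at DN. The share over all merged regions called at more than 1 stage was not computed. The DN list was the longest, with 150139 peaks against 104411 to 115074, and the effect of this on percentiles was not tested. Where a peak was called at all 4 stages, this was so for 6 of 7 3′ ends and for 2 of 11 5′ ends. Over all merged regions called at all 4 stages, DN was highest in 35.0%. The median percentiles of the 7 3′ ends were 84.9 (DN), 68.4 (DP), 74.0 (SP4) and 63.6 (SP8). Those of the 11 5′ ends were 66.7, 63.5, 61.8 and 72.3.

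*Trbv3* carried the tallest 3′ peak at DN. In the region chr6:41048670-41048964 the fold enrichment came to 17.9 (DN), 7.91 (DP), 5.55 (SP4) and 5.94 (SP8), with the DN summit 1 bp past the annotated end. At its 5′ end no peak was placed at DN, and values of 5.29 (DP), 3.42 (SP4) and 8.91 (SP8) were called. That 5′ end shares a merged region with the 3′ end of *Trbv2*, where the peaks were 5.47 (DN) and 3.79 (SP4).

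*Trbv26* and *Trbv20* had tall 3′ peaks at DN that ranked lower or were missing later. At the 3′ end of *Trbv26* (chr6:41227910-41228209) the fold enrichment was 16.2 at DN and 3.27 at DP, with no peak at SP4 or SP8 and none at the 5′ end at any stage. At the 3′ end of *Trbv20* (chr6:41188932-41189239) it was 16.8 at DN, 5.38 at DP and 5.45 at SP4, with none at SP8. The 5′ end of *Trbv20*, by contrast, was called at all 4 stages, at 6.26 (DN), 3.51 (DP), 4.27 (SP4) and 4.80 (SP8).

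*Trbv16*, *Trbv19*, *Trbv5* and *Trbv13-3* kept a 3′ peak at all 4 stages, in each case with the highest percentile at DN. The values at *Trbv16* (chr6:41151943-41152576) were 15.8 (DN), 11.9 (DP), 10.6 (SP4) and 8.94 (SP8). At *Trbv19* (chr6:41178975-41179208) they were 15.1, 10.5, 10.7 and 8.51. *Trbv5* had 12.9, 6.99, 11.7 and 11.2, and *Trbv13-3* had 13.4, 8.66, 4.98 and 5.68. The 5′ ends of these 4 segments were also called at every stage and were lower than the 3′ ends at DN. Over all 13 segments with peaks at both ends at DN, the 3′ end had the higher percentile in 7. The 5′ ends of the 4 had 6.72 (*Trbv16*), 5.43 (*Trbv19*), 7.95 (*Trbv5*) and 4.55 (*Trbv13-3*) at DN.

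Among the 3′ ends called at DN alone, *Trbv17* stood at 10.6 (chr6:41163233-41163800), *Trbv24*, a pseudogene, at 8.65, *Trbv12-1* at 8.48 and *Trbv23* at 7.34. The other 4, *Trbv11*, *Trbv12-3*, *Trbv29* and *Trbv30*, lay between 3.44 and 4.21. *Trbv17* was also called at the 5′ end at DN alone, at 4.71, so that this functional segment had no peak at either end at DP, SP4 or SP8. *Trbv23* and *Trbv12-1*, in contrast, kept 5′ peaks at all 4 stages.

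DN was not the highest stage at every 3′ end. *Trbv13-2* was lowest at DN, with 6.98, and had 8.27 at DP, 12.8 at SP4 and 8.87 at SP8. *Trbv4* had 3.88 at DN and 4.84 at DP. *Trbv12-2* and *Trbv1* did have their highest percentile at DN, but *Trbv12-2* had low peaks of 3.42 (DN) and 2.80 (DP). *Trbv1* had 7.46 (DN), 3.93 (DP), 7.15 (SP4) and 4.57 (SP8). *Trbv1* lies apart from the array, and its SP4 and DN values were close to each other.

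**Figure D3:**
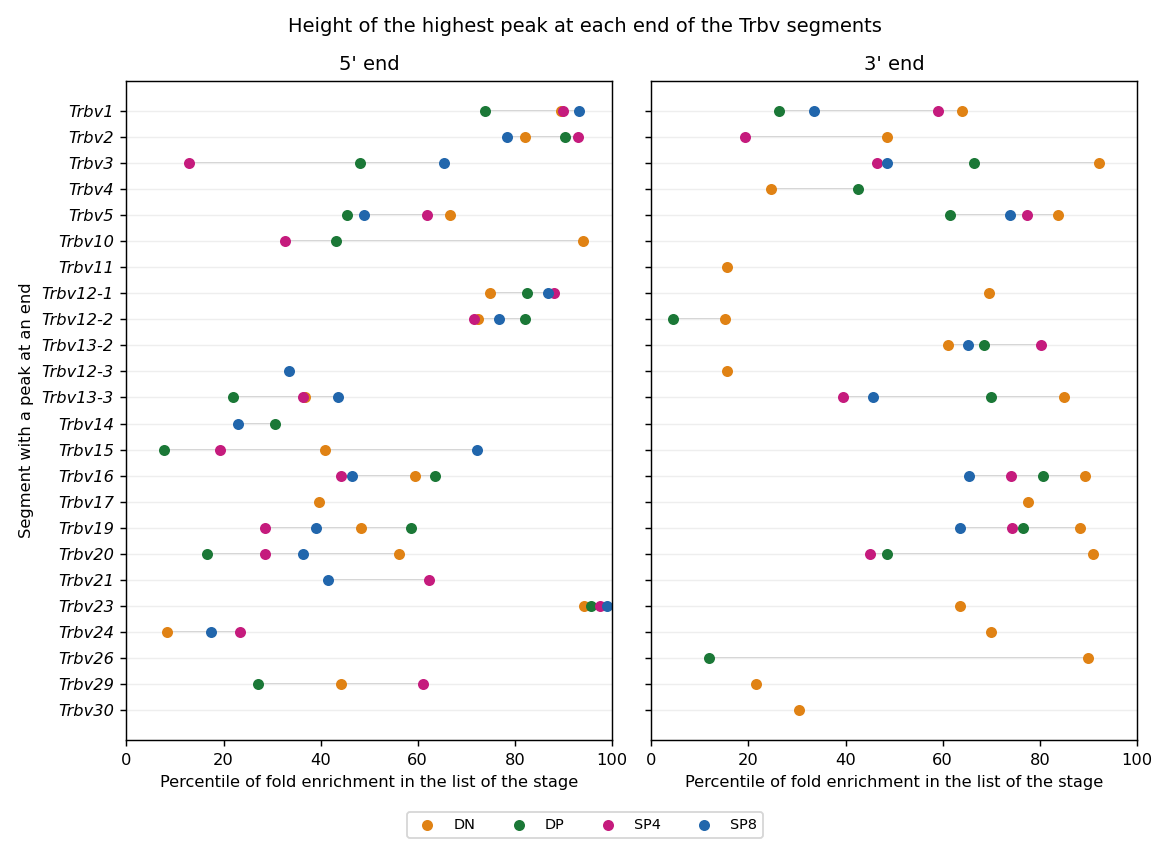
Percentile of fold enrichment, within the list of each stage, of the highest peak at the 5′ end (left) and the 3′ end (right) of each of the 24 segments with a peak at an end. Points are stages by colour, a grey line joins the lowest and highest stage, and a missing point is a stage without a peak. Among segments with points for more than 1 stage, the DN point is the rightmost in 10 of 12 at the 3′ ends and in 3 of 17 at the 5′ ends. At the 5′ ends *Trbv3*, *Trbv14* and *Trbv21* have no DN point. The 3′ ends of 8 segments have a DN point alone.

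At the 5′ ends the tallest member of the span was found at *Trbv23* (chr6:41215687-41216203). Its fold enrichment came to 19.6 (DN), 21.8 (DP), 26.6 (SP4) and 31.2 (SP8), at the 94.2, 95.8, 97.6 and 99.0 percentiles of the lists, with summits between -44 and -16 bp from the start of the segment. It was thus near the top of its list at all 4 stages and highest at SP8, while the 3′ end of the same segment was called at DN alone.

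The 5′ end of *Trbv1* (chr6:40890933-40891518) had 15.9 (DN), 9.59 (DP), 17.9 (SP4) and 21.1 (SP8). *Trbv2*, the first segment of the array, had 12.1, 16.7, 20.3 and 12.7, with summits at positions from -519 to -510 bp, counted from its start and negative upstream. *Trbv12-1* had 9.76, 12.6, 16.6 and 16.6 and its relative *Trbv12-2* 9.19, 12.4, 9.90 and 12.1. In both, the summits lay between -416 and -379 bp, away from the start. The 5′ peaks of *Trbv5* lay close to the start and had 7.95 (DN), 5.07 (DP), 7.69 (SP4) and 6.03 (SP8). *Trbv15* had 4.84, 3.04 and 3.79 at DN, DP and SP4 and 10.7 at SP8, without a 3′ peak at any stage.

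Several 5′ ends were called at some stages only. *Trbv21* had peaks at SP4 (7.82) and SP8 (5.24) and *Trbv14* at DP (4.10) and SP8 (3.93), and neither had a peak at the 3′ end. *Trbv29* had 5.10 (DN), 3.98 (DP) and 7.59 (SP4). *Trbv16* held 2 regions at its 5′ end, both called at all 4 stages, and *Trbv19* and *Trbv13-3* each had a low 5′ peak at all 4, with values from 4.27 to 6.55 and from 3.74 to 5.46. Among pseudogenes, *Trbv10* had a tall upstream peak at DN (chr6:41091298-41091841) of 19.4, the 94.0 percentile, with 4.91 at DP, 4.50 at SP4 and none at SP8. *Trbv24* had 3.06 (DN), 3.97 (SP4) and 3.58 (SP8), and *Trbv12-3* had 4.58 at SP8 alone.

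A peak was counted at a 3′ end only if its summit lay in the window around the annotated end, where the recombination signal lies. Nearness of these summits to the signal was therefore set in part by the window, which was chosen after seeing the data. The distances expected from the window alone were not computed, so those below are descriptions and do not show a preference for the signal. The median distance of the summit from the annotated end was 34.5 bp in the 20 segments of DN, 32.0 bp in the 11 of DP, 43.0 bp in the 9 of SP4 and 48.0 bp in the 7 of SP8, downstream in each case. At DN the summit lay inside the 39 bp of the 23-RSS in 8 of 20 segments and within 60 bp of the start of the heptamer in 15. The farthest were *Trbv12-1*, 197 bp, and *Trbv12-3*, 176 bp past the end. At the 5′ ends the median position of the summit, counted from the start and negative upstream, in bp was -147.0 (DN), -48.0 (DP), -114.5 (SP4) and -108.5 (SP8).

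**Figure D4:**
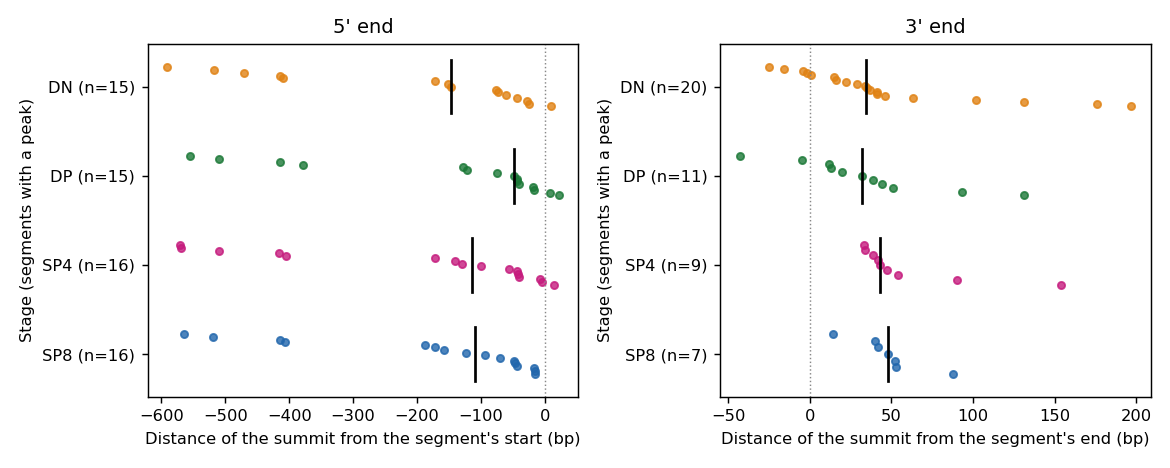
Distance in bp of the summit from the annotated start (left, negative upstream) or end (right, positive downstream) of each segment with a peak, by stage. Each point is a segment, offset vertically only to separate the points, and the black bar is the median. Only summits inside the window of an end are drawn, which limits the distances that can occur. Within it the 3′ summits gather between 0 and 100 bp past the end, with medians of 34.5, 32.0, 43.0 and 48.0 bp.

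The sequence of the signal did not sort the segments with a 3′ peak at DN from those without. Matches were counted to the heptamer CACAGTG and the nonamer ACAAAAACC, 16 bases in all. The heptamer began at the first base after the annotated segment in 26 of 34 segments and was complete in 8. *Trbv1* matched in 16 of 16. Functional segments with a DN 3′ peak had a median of 12.0 matches (17 segments, 9 to 16) and those without 12.5 (4 segments, 11 to 13). Among pseudogenes the medians were 8.0 (3 segments with) and 10.5 (10 without). *Trbv13-1*, printed above without a peak, has a complete heptamer and 13 matches, more than *Trbv12-1*, which has 9 and a DN peak. The DN summit of *Trbv12-1* lies 196 bp past the start of the heptamer, however. That of the pseudogene *Trbv12-3*, which has 8 matches, lies 173 bp past it. *Trbv12-2*, also with 9 matches, has a DN peak at the 15.2 percentile with its summit at -26 bp from the start of the heptamer.

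Motif matches were searched in the 100 bp around the highest summit of each region, on both strands. RUNX letters were found in 18 of 80 members (22.5%, against 15.8% of all merged regions) and ETS letters in 13 (16.3% against 10.4%). E-box letters were in 33 (41.3% against 36.1%), CRE-like letters in 6 (7.5% against 4.60%), the GATA factor letters, which are AGATAA, in 3 (3.75% against 3.37%) and the TCF/LEF letters CTTTGAA in 1 (1.25% against 2.42%). E-box matches were in 14 of 20 regions at 3′ ends, 8 of 22 at 5′ ends and 12 of 39 elsewhere, with the 1 region at both kinds of end counted in each. At *Trbv23* the window printed above carries a CRE-like match at chr6:41216007-41216014 and a RUNX match at chr6:41216044-41216049, both upstream of the segment. *Trbv5* and *Trbv13-3* also carry a CRE-like match in the windows at their 5′ ends.

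CTCF, which binds the anchors of chromatin loops, had matches in 3 members when whole regions were searched, or 3.75% against 3.24% of all merged regions, and in 2 of 80 in the 100 bp windows (2.5% against 1.30%). All 3 were on the + strand and in regions called at all 4 stages. They lay downstream of *Trbv1* (chr6:40893642-40893912), between *Trbv14* and *Trbv15* (chr6:41136823-41137405) and at the 3′ end of *Trbv19*. At *Trbv19* the match (chr6:41179107-41179118) holds an E-box match within it and lies after the 23-RSS. The region downstream of *Trbv1* had fold enrichments of 4.09 (DN), 6.06 (DP), 3.38 (SP4) and 4.50 (SP8). The tallest peaks of the region after *Trbv14* had 11.1, 7.02, 6.40 and 7.20, but these are not 1 site. That region held 2 peaks each at DN, DP and SP4. Its match lies at chr6:41137173-41137184, and the summits of the tallest peaks were at 41136906 (DN), 41137181 (DP), 41137115 (SP4) and 41137117 (SP8).

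Regions away from the segment ends were lower in number at DP than at the other stages: 27 of 39 were called at DN (69.2%) and 11 at DP (28.2%), and 22 each at SP4 and SP8 (56.4%). The shares over all merged regions were 75.7% (DN), 53.9% (DP), 58.3% (SP4) and 53.0% (SP8), so DP stood farthest from its background. The tallest was called at DN alone, between *Trbv6* and *Trbv7* (chr6:41075791-41076052), with a fold enrichment of 17.0 at the 91.2 percentile. It lies in no annotated gene, 4338 bp from *Trbv7*. A region after the array at chr6:41493978-41494455 was called at DN (14.4) and DP (8.89) alone. A region in an exon of the annotated gene *Gm38018* (chr6:41505460-41505660) was called at all 4 stages, at 10.9, 5.85, 7.11 and 6.98.

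Some other regions outside the ends ranked higher in the mature stages or were called there alone. The region at chr6:41104100-41104401, between *Trbv10* and *Trbv11*, had 4.77 (DN), 5.85 (DP), 12.5 (SP4) and 12.6 (SP8). These stood at the 40.3, 53.1, 79.6 and 78.0 percentiles of their lists. A region in the gap after *Trbv1*, in an exon of *Gm38294* (chr6:41025790-41026331) was called at SP4 (10.7) and SP8 (4.15) alone. Of the remaining regions called at all 4 stages away from the ends, that in an exon of *5830405F06Rik* upstream of *Trbv4* had 11.8, 6.02, 11.2 and 13.1. A second in the same gene had 7.19, 7.63, 3.17 and 4.02. The region in the gap at chr6:41015137-41015376 had 8.21, 3.04, 8.30 and 8.08, and that at chr6:41108970-41109203 had 4.68, 4.22, 4.60 and 4.40, the most even of these over the stages.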

How the data were processed

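ATAC-seq was analysed from the peak lists of DN, DP, SP4 and SP8 thymocytes. According to the study's methods, paired reads of 75 bp were placed on mm10 by BWA. Duplicates (found by Picard) and reads that were not unique and properly paired were dropped, and the authors sampled reads down to the median depth of the libraries, which does not raise libraries under it. Reads of the 4 mice per stage were then joined, and MACS2 called peaks at an FDR of 5%, with each read counted as a short window around its cut site. MACS2 and mm10 are also named in the submitters' processing notes, and versions are not given in the sources used here. The deposited lists hold, for each peak, a score, the fold enrichment at the summit as a ratio, −log10 of the p-value and of the q-value and the summit. The fold enrichment, the −log10 q-value and the summit were used here. Read depth per sample is not in these lists.

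Peaks of the 4 lists were merged where they shared at least 1 bp, and annotated with GENCODE M21 and sequence of the same build (RefSeq). Python 3.11.15 with pandas 2.3.3, numpy 2.4.6 and scipy 1.17.1 was used. The steps were tested on simulated data, and 2000 of 2000 stage sets, 200 of 200 segment ends, 200 of 200 motif matches and 200 of 200 recombination signals were recovered. The members and lists were chosen with earlier results of these data known. Named in the text are segments with a peak, regions called at all 4 stages, the 10 members of highest percentile and the 3 highest called at a single stage. The windows at segment ends were set after seeing the data, as were the alternatives for them, and other members named, with the genes that mark cell types, were chosen after their values were seen. Alternatives were stricter q-values, lists of equal length, another overlap, other windows and whole regions for motifs. No test was run, since each stage is 1 list.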

Additional observations from a re-analysis of the deposited data

How the results depend on the processing

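The counts of peaks, regions and segments were recomputed under stricter q-values (0.001 and 1e-05), with the same number of peaks from each list and, where these apply, another overlap, no 5′ flank or other windows. Motif matches were recomputed in whole regions and heights by q-value. Densities, the stage of the highest percentile, summit distances and recombination signals were not recomputed. Of 136 recomputed values, 129 stayed within 1.5 times the reported count and 7 moved further. All of these values are counts, which have no sign, so a change of direction could not occur. The 129 include 14 values without the 5′ flank, a setting that could move little. It took the merged regions from 80 to 79 and the SP4 peaks from 51 to 50. With the same number of peaks from each list (104411), DN-only regions went from 18 to 9, and segments with a 3′ peak at DN alone from 8 to 4. This setting takes fewer DN peaks by construction. In whole regions, which are longer, motif matches rose to 36 (RUNX), 13 (GATA), 3 (TCF/LEF), 56 (E-box) and 18 (CRE-like), or 45.0%, 16.3%, 3.75%, 70.0% and 22.5% of members, beside 31.0%, 11.5%, 7.62%, 61.6% and 13.2% of all merged regions. The alternatives for the segment ends were chosen after seeing the data. With narrower windows, 16, 10, 8 and 7 segments had a 3′ peak at DN, DP, SP4 and SP8, and at q-values of at most 1e-05 these were 18, 10, 9 and 7. No paired analysis was possible because each stage is 1 list pooled from 4 mice, and leaving out a mouse was not possible for the same reason.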
